A study of Mus musculus with 36 samples.

Results

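The prefrontal cortex (PFC) of mice given the HDAC inhibitor Cpd-60 was compared with the PFC of mice given a second HDAC inhibitor, CI-994, on 6 of the 36 Illumina MouseWG-6 BeadChip arrays of the study. These are all the arrays that the labels assign to either compound in this region, 3 for Cpd-60 and 3 for CI-994. Each array held RNA pooled from 2 male C57BL/6J mice, whose age the labels do not give, so each group rests on 3 pools, and the other arrays hold the same pools' nucleus accumbens (NAc) and hippocampus (HIP) and the same regions of mice given vehicle or SAHA. Cpd-60 was injected intraperitoneally at 45 mg/kg in 7.5 mL/kg and CI-994 at 10 mg/kg in 5 mL/kg. Vehicle, a mixture of saline, PEG-400 and DMSO, was injected at 7.5 mL/kg, and SAHA, also an HDAC inhibitor, at 25 mg/kg in 5 mL/kg. Every mouse received 10 daily injections, and tissue was taken 1 h after the last. The doses and injected volumes of Cpd-60 and CI-994 differ, so that compound, dose and volume cannot be told apart in any difference given here. These 2 groups had 1 dose each.

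Histone deacetylases (HDACs) remove acetyl groups from the lysines of histone tails, and drugs that block them raise histone acetylation and change the transcription of a limited set of genes. The class I enzymes are HDAC1, HDAC2, HDAC3 and HDAC8, and HDAC1, HDAC2 and HDAC3 act inside large corepressor complexes. CI-994 (tacedinaline) is a benzamide that inhibits enzymes of class I, though not necessarily all of them. Cpd-60 is described by the study as a benzamide selective for HDAC1 and HDAC2. Many genes that appear below are transcribed in response to glucocorticoids, the adrenal steroids released with stress and with the daily rhythm. Their receptor moves to the nucleus and binds short palindromic sites in DNA, and its targets in brain include kinases, transcriptional repressors and metallothioneins of neurons, astrocytes and vessels.

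Raw intensity on the 6 arrays had a median between 87.1 and 107.9, and between 32.8 and 37.8% of the 45281 probes were detected at a p of at most 0.01. Precision is limited by how few arrays there are. Cpd-60 pool 3 stood apart. Its correlation with the other 2 Cpd-60 arrays over tested probes was 0.977, against 0.992 between those 2, and CI-994 pool 1 correlated at 0.987 and 0.989 with its group, in which pools 2 and 3 correlated at 0.995. BeadChip 1 carried Cpd-60 pools 1 and 2 and CI-994 pool 1, and BeadChip 2 carried Cpd-60 pool 3 and CI-994 pools 2 and 3. Differences within each BeadChip are therefore given for some of the genes, and a gene given without them need not be even across the BeadChips. Cpd-60 pool 2 is named for mice 3 and 4 in its title and source and for mice 1 and 2 in its description. The title was followed, and values without this pool are given with the genes whose difference turns on it. Of 18 markers of cortical glutamatergic neurons 16 were detected and tested, with a summed intensity of 23617 to 31808 under Cpd-60 and 25399 to 30158 under CI-994, while 12 striatal markers, 11 of them detected, summed to 3505 to 4014 and 2975 to 3685.

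Sequence upstream of 3 genes with large positive differences is shown first, because their regulation by the clock or by glucocorticoids is well known. The stretches are the 250 bases before an annotated RefSeq start on GRCm38.p6, each on the strand of the gene. Capitals mark the letters of 3 motifs searched on both strands. These were the E-box CACGTG, to which clock proteins bind, the half-site AGAACA of the glucocorticoid receptor (TGTTCT on the other strand), and its palindrome, the arms AGNACA and TGTNCT 3 bases apart, which can hold half-sites within it. Ciart, on the array as Gm129, encodes a repressor of the circadian clock and has 1 annotated start. Sgk1, a serine/threonine kinase, has 6 starts, and the start shown is the 1 that holds the palindrome. Tsc22d3, which encodes the leucine zipper protein GILZ, has 3, and the start shown is the 1 with a half-site.
Ciart, chr3:95882229-95882478, minus strand: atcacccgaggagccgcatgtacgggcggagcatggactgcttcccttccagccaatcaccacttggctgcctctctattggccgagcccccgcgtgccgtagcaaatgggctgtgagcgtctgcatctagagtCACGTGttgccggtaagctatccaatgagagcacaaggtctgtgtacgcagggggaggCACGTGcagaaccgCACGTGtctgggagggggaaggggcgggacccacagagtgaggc
Sgk1, chr10:21993640-21993889, plus strand: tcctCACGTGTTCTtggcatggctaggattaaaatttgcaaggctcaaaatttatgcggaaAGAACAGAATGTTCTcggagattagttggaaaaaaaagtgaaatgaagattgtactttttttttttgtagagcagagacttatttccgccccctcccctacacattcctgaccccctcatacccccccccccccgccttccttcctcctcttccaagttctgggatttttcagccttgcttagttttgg
Tsc22d3, chrX:140600523-140600772, minus strand: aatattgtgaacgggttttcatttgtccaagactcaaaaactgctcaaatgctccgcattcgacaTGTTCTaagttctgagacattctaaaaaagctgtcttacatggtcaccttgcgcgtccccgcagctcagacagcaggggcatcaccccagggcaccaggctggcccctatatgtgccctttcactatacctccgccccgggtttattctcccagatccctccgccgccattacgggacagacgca
The Ciart stretch holds 3 E-boxes, at 116, 58 and 44 bases before the start. The Sgk1 stretch holds 1 palindrome at 189 bases before the start and, at 246 bases, an E-box that overlaps a further half-site. The Tsc22d3 stretch holds 1 half-site at 185 bases. Among 32851 mouse promoter stretches of this length, 6.02% held an E-box, 16.1% a half-site and 0.0609% the palindrome. Of 22 genes of the glucocorticoid list described below that have an entry, 4 (Bcl6, Sgk1, Sult1a1 and Tsc22d3) held a half-site before at least 1 start. An E-box was held by 5 (Bcl6, Dusp1, Fkbp5, Per1 and Sgk1) and the palindrome by 1 (Sgk1). A gene can have several starts, so these counts are not like the shares above, which are by stretch. By stretch, 6 of the 33 entries of these genes held a half-site, 5 an E-box and 1 the palindrome. Mfsd2a, listed on the array as Mfsd2, held none of the 3. These matches describe letters in a window and were not measured as binding.

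Among genes induced by glucocorticoids 14 of 25 tested, and among cell-cycle inhibitor and Gadd45 genes 4 of 15, were higher under Cpd-60 than under CI-994 by the calling rule below (unadjusted p under 0.05, 1.2-fold or more), and none was lower. The genes with the largest positive differences were Gm129, Cdkn1a, Mfsd2 and Sgk1, between 1.55- and 1.70-fold, and those with the largest negative ones were Echdc2, B930007L02Rik, Ndufs8 and ENSMUSG00000068790, between 1.38- and 1.51-fold. No transcript passed limma's test with Benjamini-Hochberg adjustment (0 of 19913 probes, 0%), and the smallest adjusted p was 0.1825. At an unadjusted p under 0.05 there were 1552 probes (7.79%). A probe or gene is called higher or lower here when it passed that unadjusted p and differed by at least 1.2-fold. This called 239 probes (1.2%) higher and 237 (1.19%) lower under Cpd-60. With 1 probe for each gene, 199 of 14382 genes (1.38%) were called higher and 186 (1.29%) lower. All 3 Cpd-60 pools lay above all 3 CI-994 pools for 893 genes (6.21%), and all 3 lay below for 1047 genes (7.28%). The median standard error of a difference was 0.0872 log2 units and the median 95% interval reached 0.19 log2 units to either side. When each of the 12 PFC arrays of the fit was left out in turn, 58 of the 199 higher calls and 46 of the 186 lower calls stayed in all 12 fits. Without Cpd-60 pool 3, 392 genes were called higher and 418 lower, and 14 higher and 3 lower genes passed the adjusted p of limma. The 14 included Mfsd2, Sgk1, Gm129, Agxt2l1, Ddit4, Tsc22d3, Nfkbia and Txnip, and the 3 were Mkks, 1810006K21Rik and Sin3b. The labels do not say that pools came from separate cages or litters, so p-values measure the spread between pools.

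The 12 genes with the largest positive differences among called genes, detected on all 6 arrays and with the pools of the groups apart, were Gm129, Cdkn1a, Mfsd2, Sgk1, Agxt2l1, Tsc22d3, Ddit4, Inmt, Ctgf, Klf9, Rin2 and Sult1a1. They were drawn from 145 genes that met these conditions, and because the choice required the call and the separation of the pools, neither is a finding about them. Values below are normalized log2 intensities of 1 probe for each gene, and differences are Cpd-60 minus CI-994 in log2 units with the standard error of the fit, with 3 pools in each group.

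**Figure D1:**
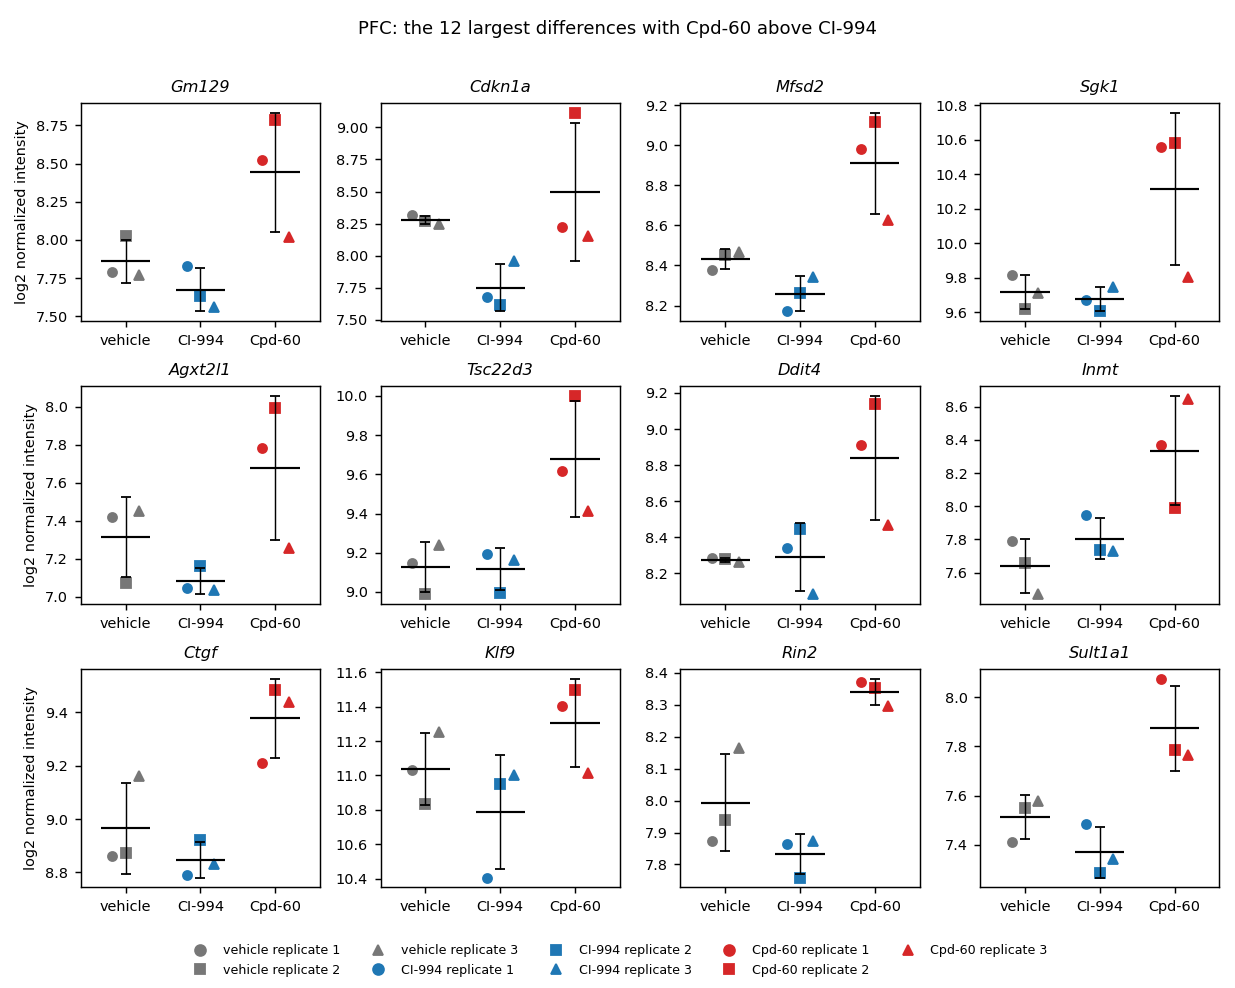
Normalized log2 intensity in the PFC of the 12 genes with the largest positive difference, 1 panel for each gene, in the 3 pools of vehicle, CI-994 and Cpd-60. Points are pools, with the shape giving the replicate, and lines with error bars are the mean ± SD. The Cpd-60 points lie above the CI-994 points in each panel, by choice, and for Klf9 the lowest Cpd-60 pool (11.02) lies next to the highest CI-994 pool (11.01).

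The clock repressor Gm129 measured 8.52, 8.79 and 8.02 in Cpd-60 pools 1, 2 and 3 and 7.83, 7.63 and 7.56 in the CI-994 pools. Pool 3 of Cpd-60 was the nearest to CI-994 and did not overlap with it. The difference was 0.77 ± 0.17 (limma adjusted p = 0.3015). It was 0.82 within BeadChip 1 and 0.42 within BeadChip 2. The other 2 probes of the gene were also called, with differences between 0.55 and 0.64. Of the 17 clock genes tested, among them period, Rev-erb and Ror genes, 1 was called by the probe used for each gene, and that was Gm129. Over all genes 1.38% were called higher and 1.29% lower. A probe labelled Per, a synonym of Per1 in the RefSeq table, stood outside the list and was also called. It measured 6.65, 8.16 and 6.63 under Cpd-60 against 6.41, 6.49 and 6.58. It was detected at p of at most 0.05 on 1 Cpd-60 array, that of pool 2, and on 0 CI-994 arrays. The Cpd-60 mean was 1.38-fold above the lowest detected signal of CI-994 (limma adjusted p = 0.6327). As pools 1 and 3 were near background too, this is not a bound for the group. Pool 2 set this difference, which was 0.15 log2 units without it, and the call was then lost. It was also lost without any one CI-994, vehicle or SAHA pool, 10 of the fits that left out 1 array, and with the BeadChip as a block. Per2, a core period gene that the study names from these arrays, measured 8.93, 8.78 and 9.21 under Cpd-60 and 9.15, 9.02 and 9.03 under CI-994. The Per2 groups overlapped, and the 95% interval of their difference ran from -0.30 to 0.11. Set against vehicle, whose arrays both comparisons share, Per2 was at -0.39 under Cpd-60 and at -0.29 under CI-994. Dbp, a transcription factor that the clock drives, differed by 0.19 ± 0.10 and was not called.

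Cdkn1a encodes p21, an inhibitor of cyclin-dependent kinases. It measured 8.22, 9.11 and 8.16 under Cpd-60, 7.67, 7.62 and 7.96 under CI-994, and between 8.25 and 8.32 under vehicle. The CI-994 pools lay below the 3 vehicle pools, whereas Cpd-60 pool 2 lay above them and Cpd-60 pools 1 and 3 just under them. The difference between the compounds was 0.74 ± 0.20 (limma adjusted p = 0.3912), and against vehicle Cdkn1a was at 0.22 ± 0.20 under Cpd-60 and at -0.53 ± 0.20 under CI-994. Without Cpd-60 pool 2 the difference between the compounds was 0.44, and the gene was still called. The other 2 probes of Cdkn1a differed by 0.44, of which 1 was called. Of the 15 cell-cycle inhibitor and Gadd45 genes tested, 4 were called higher and none lower, beside 1.38% and 1.29% of all genes, with a median of 0.02 over the list against -0.002 over all genes. After neqc normalization 3 of the 15 were called lower. Sesn1, a sestrin that restrains growth signalling, measured 9.98, 10.05 and 10.12 against 9.88, 9.35 and 9.43, and Trp53inp1, a target of p53, 7.43, 7.83 and 7.34 against 7.11, 7.18 and 6.99. Neither gene overlapped between the groups, and the differences were 0.50 ± 0.16 (limma adjusted p = 0.4744) for Sesn1 and 0.44 ± 0.12 (limma adjusted p = 0.4401) for Trp53inp1. Gadd45g, a growth arrest gene that takes part in DNA demethylation, differed by 0.41 ± 0.18 and lost its call without Cpd-60 pool 2, Cpd-60 pool 3 or CI-994 pool 3. Cdkn1a stands in this list and in the glucocorticoid list.

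Mfsd2a, the transporter that carries lysophosphatidylcholine with docosahexaenoic acid across brain endothelium, had the smallest p of the genes described here. Its probe, labelled Mfsd2, measured 8.98, 9.12 and 8.63 under Cpd-60 and 8.17, 8.26 and 8.34 under CI-994. The difference was 0.65 ± 0.10 (limma adjusted p = 0.1825), with 0.88 within BeadChip 1 and 0.33 within BeadChip 2. Sgk1, a kinase that acts on ion channels and is a classical target of corticosteroids, measured 10.56, 10.58 and 9.80 under Cpd-60 and 9.67, 9.61 and 9.75 under CI-994. Its Cpd-60 pools 1 and 2 were high and pool 3 lay just above the CI-994 range. The difference was 0.64 ± 0.18 (limma adjusted p = 0.4401), but 0.89 within BeadChip 1 and 0.12 within BeadChip 2, where pool 3 is the Cpd-60 array. Tsc22d3, whose product GILZ binds and restrains inflammatory transcription factors, measured 9.62, 9.999 and 9.41 under Cpd-60 against 9.19, 8.996 and 9.16. It differed by 0.56 ± 0.12 (limma adjusted p = 0.3015), and its second probe by 0.69. Against vehicle it was at 0.55 ± 0.12 under Cpd-60 and at -0.01 ± 0.12 under CI-994.

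Ddit4 encodes REDD1, an inhibitor of mTORC1, and measured 8.91, 9.14 and 8.47 under Cpd-60 against 8.34, 8.45 and 8.08. The groups were apart by little at pool 3, and the difference was 0.55 ± 0.14 (limma adjusted p = 0.3912). Klf9, a zinc finger transcription factor of neurons, measured 11.41, 11.49 and 11.02 under Cpd-60 against 10.41, 10.95 and 11.01. CI-994 pool 1 was low here, and the difference of 0.52 ± 0.17 (limma adjusted p = 0.483) was 1.04 within BeadChip 1 and 0.04 within BeadChip 2. Without CI-994 pool 1 it was 0.33, and the gene was still called. Ctgf, a secreted matrix protein now named Ccn2, measured 9.21, 9.48 and 9.44 under Cpd-60 against 8.79, 8.92 and 8.83. All 3 Cpd-60 pools were well above CI-994, at 0.53 ± 0.09 (limma adjusted p = 0.1825), with 0.56 within either BeadChip.

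Agxt2l1, Inmt and Sult1a1 encode enzymes that handle small amines and phenols. Agxt2l1, now Etnppl, breaks down phosphoethanolamine in astrocytes and measured 7.78, 7.99 and 7.25 under Cpd-60 against 7.04, 7.16 and 7.04. Inmt, which methylates indoleamines, measured 8.37, 7.99 and 8.65 against 7.95, 7.73 and 7.73, and here Cpd-60 pool 3 was the highest. Sult1a1, a phenol sulfotransferase, measured 8.07, 7.78 and 7.77 against 7.49, 7.28 and 7.34, with the groups well apart. Their differences were 0.60 ± 0.15, 0.53 ± 0.14 and 0.50 ± 0.10, with limma adjusted p-values of 0.3912, 0.3932 and 0.1864. Within BeadChips 1 and 2, Agxt2l1 differed by 0.84 and 0.16, and Inmt by 0.23 and 0.91. The second probe of Inmt was called at 0.33, and that of Agxt2l1, at 0.32, was not. Rin2, which activates the endosomal GTPase Rab5, was even across pools, at 8.37, 8.35 and 8.29 against 7.87, 7.76 and 7.87. It differed by 0.51 ± 0.08 (limma adjusted p = 0.1825), but its second probe by -0.06, so the probes of Rin2 disagree.

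Of the other genes that the study names from these arrays, Usp54, which encodes a member of the ubiquitin-specific protease family, was called higher. It measured 8.73, 8.78 and 8.61 under Cpd-60 against 8.39, 8.24 and 8.29, a difference of 0.40 ± 0.08 (limma adjusted p = 0.2621). Cacng5, an auxiliary subunit of AMPA receptors, differed by 0.13 (95% interval -0.001 to 0.26), Mef2c, a neuronal transcription factor, by 0.04 (-0.24 to 0.33), and Igfbp5, which binds insulin-like growth factors, by -0.05 (-0.29 to 0.19). None of these 3 was called. The study chose these genes on arrays that include the Cpd-60 pools, so their direction is not independent evidence.

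**Figure D2:**
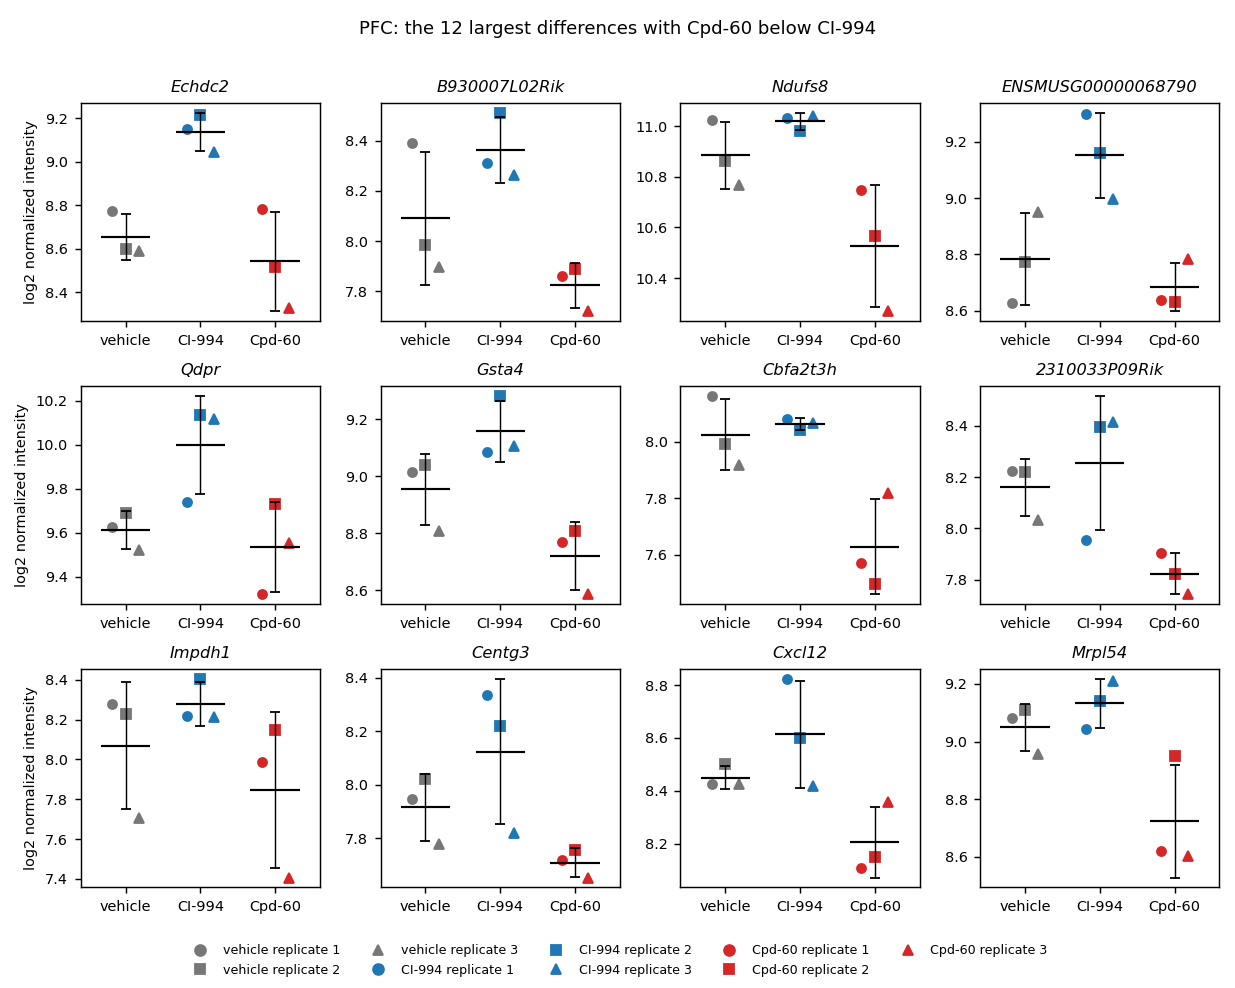
Normalized log2 intensity in the PFC of the 12 genes with the largest negative difference, drawn as for the higher genes, in the 3 pools of vehicle, CI-994 and Cpd-60 with the mean ± SD. The Cpd-60 points lie below the CI-994 points, by choice, and the Echdc2 values of Cpd-60 (8.33 to 8.78) and vehicle (8.59 to 8.77) cover a similar range.

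The 12 genes with the largest negative differences, of 136 that met the same conditions, were Echdc2, B930007L02Rik, Ndufs8, ENSMUSG00000068790, Qdpr, Gsta4, Cbfa2t3h, 2310033P09Rik, Impdh1, Centg3, Cxcl12 and Mrpl54. Echdc2, Ndufs8 and Mrpl54 encode mitochondrial proteins. Echdc2, a protein of the enoyl-CoA hydratase family, measured 8.78, 8.52 and 8.33 under Cpd-60 against 9.15, 9.22 and 9.04 under CI-994. It differed by -0.59 ± 0.10 (limma adjusted p = 0.1825), and against vehicle was at -0.11 ± 0.10 under Cpd-60 and at 0.48 ± 0.10 under CI-994. The other 2 probes of Echdc2 differed by -0.19 and -0.30, and 1 of them was called. Ndufs8, an iron-sulfur subunit of respiratory complex I, measured 10.75, 10.56 and 10.27 against 11.04, 10.98 and 11.04, with Cpd-60 pool 3 the lowest. It differed by -0.49 ± 0.11 (limma adjusted p = 0.3015) and was 0.36 ± 0.11 below vehicle under Cpd-60 and 0.13 ± 0.11 above it under CI-994. Mrpl54, of the mitochondrial ribosome, measured 8.62, 8.95 and 8.60 against 9.04, 9.14 and 9.21, a difference of -0.41 ± 0.10. Ndufs8 was not on the list of oxidative phosphorylation genes, whose 36 tested members had a median difference of -0.02. None of the 36 was called higher or lower, beside 1.38% and 1.29% of all genes.

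Qdpr, which regenerates tetrahydrobiopterin, the cofactor of monoamine synthesis, and is abundant in oligodendrocytes, measured 9.32, 9.73 and 9.55 under Cpd-60 against 9.74, 10.14 and 10.12. Cpd-60 pool 2 and CI-994 pool 1 nearly met, and the difference was -0.46 ± 0.13 (limma adjusted p = 0.4175). Against vehicle Qdpr was at -0.08 ± 0.13 under Cpd-60 and at 0.39 ± 0.13 under CI-994. Gsta4, a glutathione transferase that clears lipid aldehydes, measured 8.77, 8.81 and 8.59 against 9.09, 9.28 and 9.11, and differed by -0.44 ± 0.10 (limma adjusted p = 0.3015). Cbfa2t3h, now Cbfa2t3, encodes a corepressor of the ETO family that recruits HDACs, and measured 7.57, 7.50 and 7.82 against 8.08, 8.04 and 8.06. It differed by -0.43 ± 0.11 (limma adjusted p = 0.3912), mostly on the Cpd-60 side, with -0.40 ± 0.11 against vehicle for Cpd-60 and 0.04 ± 0.11 for CI-994.

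Cxcl12, a chemokine of vessels and meninges, measured 8.11, 8.15 and 8.36 under Cpd-60 against 8.82, 8.60 and 8.42, with pool 3 of each close to the other. It differed by -0.41 ± 0.10 (limma adjusted p = 0.3594), with -0.69 within BeadChip 1 and -0.15 within BeadChip 2. Its other 2 probes, at -0.16 and -0.12, were not called. Centg3, now Agap3, a GTPase-activating protein of Arf, measured 7.72, 7.76 and 7.65 against 8.33, 8.22 and 7.82, a difference of -0.41 ± 0.12. B930007L02Rik, a synonym of Dcaf1 in the RefSeq table, measured 7.86, 7.89 and 7.72 against 8.31, 8.51 and 8.27, with all pools apart and a difference of -0.54 ± 0.11. The genes without a functional name, ENSMUSG00000068790 and 2310033P09Rik, differed by -0.47 ± 0.10 and -0.43 ± 0.11. For 2310033P09Rik the difference was -0.09 within BeadChip 1 and -0.66 within BeadChip 2, and its second probe was at 0.08. Impdh1, a rate-limiting enzyme of guanine nucleotide synthesis, measured 7.99, 8.15 and 7.41 against 8.22, 8.40 and 8.21, so that 1 pool set the difference of -0.43 ± 0.20 (limma adjusted p = 0.6354). Within BeadChip 1 the difference was -0.15 and within BeadChip 2 it was -0.90. Without Cpd-60 pool 3 it was -0.21 and the call was lost. The call was also lost without any one of CI-994 pools 1, 2 and 3, vehicle pools 1 and 2 and SAHA pool 2. The other 2 probes of Impdh1 were at -0.03 and 0.005. The other genes among these 24 kept their call in each of the 12 fits that left out 1 array. They also kept it with the BeadChip as a block. All 24 kept their sign within either BeadChip, but the choice of genes with pools apart required this, so it is not a finding.

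The list of genes induced by glucocorticoids held 26 genes, of which 25 were tested and Glul was not tested here. Of the 25, 14 were called higher and none lower, beside 1.38% and 1.29% of all genes. A positive difference was found in 23, beside 49.2% of all genes. The median over the list was 0.28 log2 units, against -0.002 over all genes. In 14 genes all Cpd-60 pools lay above all CI-994 pools and in 1, Cebpd (difference -0.18 ± 0.06), below, beside 6.21% and 7.28% of all genes. The 14 called genes include Lcn2, which has only a bound under CI-994, and without it 13 of 24 were called, with a median of 0.28. Sgk1, Tsc22d3, Sult1a1 and Mfsd2 are among the genes the study picked on these arrays, and are not independent evidence of direction. Without these 4 genes, 10 of 21 were called higher and none lower, with a median of 0.24. The list was chosen with earlier results of these data known, so these 21 genes are not independent evidence either. With the BeadChip as a block 12 of the 25 were called higher, without Cpd-60 pool 2 there were 11, without Cpd-60 pool 3 there were 16, and by the test of the methods, an analysis of variance followed by Tukey's comparison, there were 6.

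**Figure D3:**
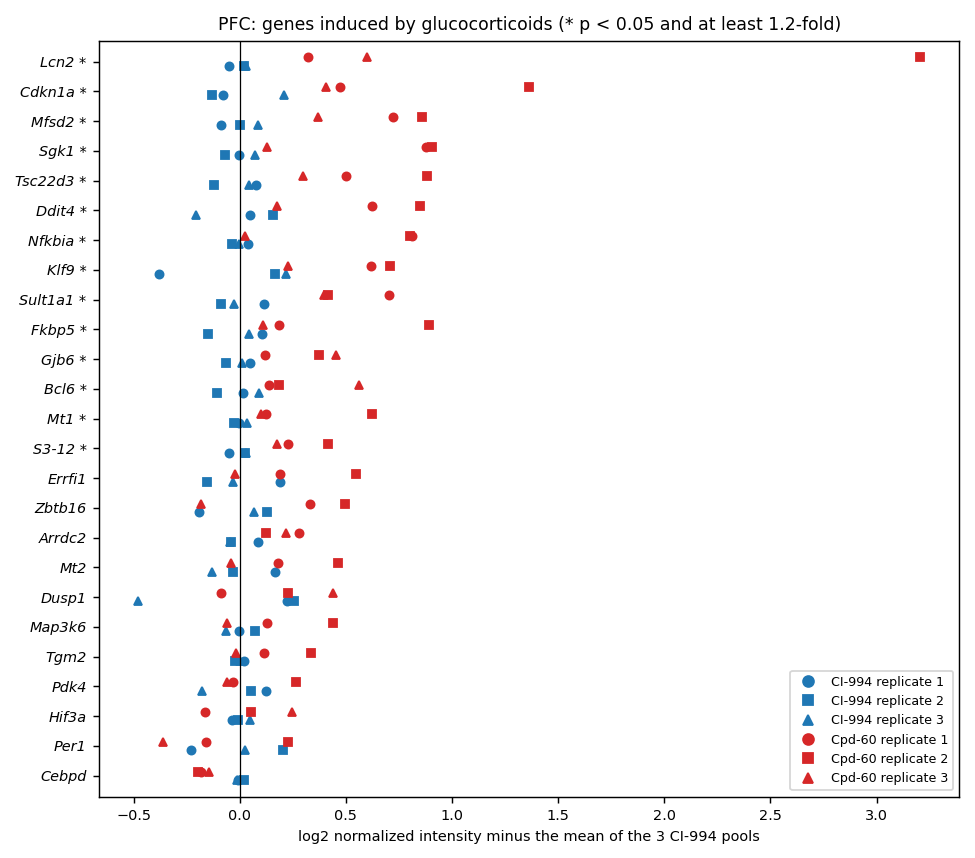
The 25 tested genes of the glucocorticoid list in the PFC, ordered by difference, as log2 normalized intensity of each pool minus the mean of the 3 CI-994 pools of that gene. Red points are Cpd-60 pools and blue points CI-994 pools, with the shape giving the replicate and an asterisk marking the 14 called genes. Cpd-60 replicate 2 (squares) lies farthest to the right in many genes, and replicate 3 (triangles) is often nearest to the CI-994 points.

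The summed intensity of these 25 genes was 19540, 25367 and 17976 in Cpd-60 pools 1, 2 and 3, 15769, 16103 and 16404 in the CI-994 pools and between 15124 and 16645 under vehicle. Each Cpd-60 pool exceeded every CI-994 and vehicle pool, and the SAHA pools lay between 16283 and 17643. The sum is of linear intensities, so a bright member such as Mt1 weighs far more in it than a dim one such as Fkbp5. Over the 25 genes, the median difference from the vehicle mean was 0.20, 0.46 and 0.16 in Cpd-60 pools 1, 2 and 3. In the CI-994 pools it was -0.02, -0.02 and -0.05. Over all genes the median difference from vehicle was 0.002 under Cpd-60 and 0.004 under CI-994. Among members not yet described, Fkbp5, a cochaperone that dampens the glucocorticoid receptor, measured 7.29, 7.99 and 7.21 under Cpd-60 against 7.21, 6.95 and 7.14. Pool 2 was far above the rest, and the difference of 0.40 ± 0.16 (limma adjusted p = 0.5962) was 0.15 without that pool, was not called without it or without CI-994 pool 2 or with the BeadChip as a block. Nfkbia, the inhibitor of NF-kB, measured 8.52, 8.51 and 7.73 against 7.75, 7.67 and 7.71, so Cpd-60 pool 3 lay within the CI-994 range. It differed by 0.55 ± 0.16 (limma adjusted p = 0.458), 0.77 within BeadChip 1 and 0.04 within BeadChip 2. Mt1, a metallothionein that binds zinc and copper, measured 13.01, 13.51 and 12.99 against 12.88, 12.86 and 12.92. Its difference of 0.28 ± 0.12 fell to 0.11 without Cpd-60 pool 2, and the call was lost without that pool, without any one CI-994 pool, and with the chip as a block.

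Gjb6, a gap junction protein of astrocytes, differed by 0.32 ± 0.09, Bcl6, a transcriptional repressor, by 0.30 ± 0.12, and S3-12, the lipid droplet protein perilipin 4, by 0.27 ± 0.08. The call of Gjb6 was lost without Cpd-60 pool 3, that of Bcl6 without Cpd-60 pool 3 (0.16) or CI-994 pool 2, and that of S3-12 without Cpd-60 pool 2 or CI-994 pool 1. Lcn2, a secreted siderophore-binding protein of inflamed astrocytes and vessels, measured 6.91, 9.79 and 7.18 under Cpd-60 against 6.54, 6.61 and 6.62, and was not well above background on any CI-994 array. Taken against the lowest detected signal of CI-994, the Cpd-60 mean was at least 2.43-fold higher (limma adjusted p = 0.5807). Pool 2, far above the other pools, set that mean. Without Cpd-60 pool 2 the difference was 0.46, and the bound does not hold for pools 1 and 3. Genes of the list that were not called included Per1 by the probe of that name (-0.10 ± 0.18), Dusp1, a phosphatase of MAP kinases (0.19 ± 0.18), Errfi1, a feedback inhibitor of the EGF receptor (0.24 ± 0.13), Zbtb16 (0.21 ± 0.15) and Mt2 (0.20 ± 0.12).

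None of the class I HDAC genes themselves was called, and Hdac1 was not tested here. Hdac2 measured 8.32, 8.24 and 9.22 under Cpd-60 against 8.63, 8.58 and 8.71 under CI-994, so that Cpd-60 pool 3 was above and pools 1 and 2 below all CI-994 pools. The 95% interval of its difference ran from -0.55 to 0.45, that of Hdac3 from -0.17 to 0.29 and that of Hdac8 from -0.11 to 0.25. Of 23 tested class I HDAC genes and corepressors 2 were called higher and 1 lower, beside 1.38% and 1.29% of all genes. Tbl1xr1, a core subunit of the NCoR and SMRT corepressor complexes that hold HDAC3, measured 9.61, 9.65 and 9.73 under Cpd-60 against 9.34, 9.08 and 9.16. All pools were apart, and the difference was 0.47 ± 0.08 (limma adjusted p = 0.1825), with 0.29 within BeadChip 1 and 0.61 within BeadChip 2. Its paralogue Tbl1x, at 0.46 ± 0.16, was called through CI-994 pool 1. It measured 8.55, 8.65 and 8.16 against 7.59, 8.21 and 8.18, was at 0.26 and not called without that pool, also lost the call without Cpd-60 pool 2, was at -0.04 within BeadChip 2, and its second probe was at 0.03. Mbd3, a subunit of the NuRD complex, differed by -0.29 ± 0.12, and by -0.14 without Cpd-60 pool 3, where the call was lost, as it was without CI-994 pool 2. None of the 7 class II and IV HDAC genes and none of the 18 acetyltransferase and bromodomain genes was called.

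**Figure D4:**
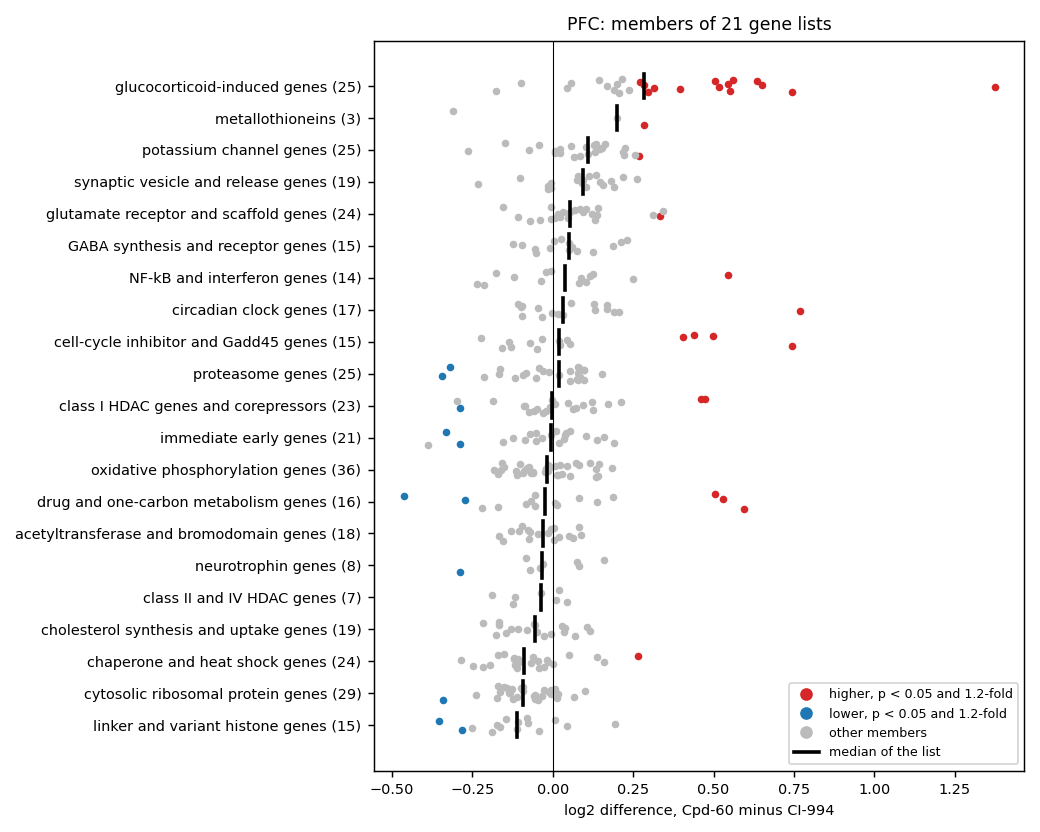
Log2 difference between Cpd-60 and CI-994 in the PFC for the tested members of 21 gene lists, with the number tested in brackets. Red points were called higher, blue points called lower and grey points not called, and the black bar is the median of the list. The glucocorticoid list has the highest median (0.28) and the linker and variant histone list the lowest (-0.11).

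Of the other lists, written from general knowledge but with earlier results of these data known, 6 had no call in either direction. Linker and variant histone genes had the lowest median, -0.11 over 15 genes, with 3 positive differences (49.2% of all genes were positive). None was called higher and 2 were called lower, beside 1.38% and 1.29% of all genes. Hist1h2be measured 8.88, 9.08 and 9.38 under Cpd-60 against 9.43, 9.55 and 9.42, and differed by -0.35 ± 0.10 (limma adjusted p = 0.458). H2afv, at -0.28 ± 0.13, lost its call without Cpd-60 pool 1 or 2, CI-994 pool 1 or 2, vehicle pool 2 or any SAHA pool, and with the BeadChip as a block. Hist1h2be lost it without Cpd-60 pool 1. Of 29 cytosolic ribosomal protein genes 5 were positive and the median was -0.09. Of these Rpl18 (-0.34 ± 0.09, limma adjusted p = 0.3912) was called lower, and in 8 the Cpd-60 pools lay below the CI-994 pools, beside 7.28% of all genes. The summed intensity of the 29 was 135786 to 141679 under Cpd-60, 143543 to 147334 under CI-994 and 133005 to 146188 under vehicle.

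Potassium channel genes were positive in 21 of 25, beside 49.2% of all genes, with a median of 0.11. Of these 1 was called higher, beside 1.38% of all genes. That gene, Kcnab1, an auxiliary beta subunit of voltage-gated channels, measured 10.11, 9.94 and 9.95 against 9.77, 9.60 and 9.82, a difference of 0.27 ± 0.09, and lost its call without Cpd-60 pool 1 or CI-994 pool 2 and with the BeadChip as a block. Of 21 immediate early genes, transcribed within minutes of neuronal activity, none was called higher and 2 lower, beside 1.38% and 1.29% of all genes. Bdnf, the neurotrophin, measured 8.25, 8.35 and 8.56 under Cpd-60 against 8.55, 8.70 and 8.78. Its groups overlapped at Cpd-60 pool 3 and CI-994 pool 1, and it differed by -0.29 ± 0.08 (limma adjusted p = 0.4542), with the call lost without Cpd-60 pool 1 or CI-994 pool 3 and, at -0.26, with the BeadChip as a block. Beside vehicle, Bdnf was at -0.56 under Cpd-60 and at -0.27 under CI-994. Nr4a2, an orphan nuclear receptor, differed by -0.33 ± 0.13 and lost its call without Cpd-60 pool 3 or CI-994 pool 2. For Fos the 95% interval ran from -0.46 to 0.21, for Egr1 from -0.42 to 0.32 and for Arc from -1.17 to 0.40.

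Calls on the remaining lists were few. Over all genes 1.38% were called higher and 1.29% lower, which stands beside each count of this paragraph. Of 16 drug and one-carbon metabolism genes 3 were called higher (Agxt2l1, Inmt and Sult1a1) and 2 lower (Qdpr and Gstp1). The study picked Agxt2l1, Sult1a1 and Qdpr on arrays that include the Cpd-60 pools, so their calls are not independent evidence. Gstp1, a glutathione transferase, was tight across pools, at 11.04, 11.06 and 11.06 under Cpd-60 against 11.37, 11.31 and 11.31, and differed by -0.27 ± 0.07. Without CI-994 pool 1 it was at -0.25, under 1.2-fold. Of 25 proteasome genes 2, Psmb5 (-0.34 ± 0.12) and Psmd8 (-0.32 ± 0.14), were called lower, and both lost the call without Cpd-60 pool 1 or 3, Psmd8 also without CI-994 pool 1 or 2. Single genes were called higher among chaperones (Hspb8, 0.27 ± 0.10, lost without Cpd-60 pool 3 or CI-994 pool 2 or 3) and glutamate receptors and scaffolds. The latter was the AMPA receptor subunit gene Gria2, at 0.33 ± 0.15, which was at 0.10 without CI-994 pool 1 and lost its call also without Cpd-60 pool 1 or 2 or any vehicle or SAHA pool. GABA, synaptic vesicle and cholesterol genes had no call.

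Markers of the cell types that a PFC dissection can hold were compared over 16 lists. Over 155 marker genes tested, 7 were called higher and 2 lower, beside 1.38% and 1.29% of all genes, and list medians lay between -0.04 and 0.12. In bulk tissue, fewer cells of a type and less RNA per cell cannot be told apart. Astrocyte markers, of which 11 of 14 were tested, summed to 17914 to 19239 under Cpd-60 and 17755 to 17913 under CI-994, and Gjb6 and Aldh1l1 (0.28 ± 0.09) were called. Gfap, the filament of reactive astrocytes, measured 9.60, 10.03 and 9.22 under Cpd-60 against 9.41, 9.88 and 9.57, with a difference near 0 (-0.001 ± 0.25). Brain endothelial markers, 12 of 14 tested, summed to 3802 to 4093 and 3620 to 4027, with Mfsd2 and Slc2a1 (0.32 ± 0.14) called higher and Itm2a (-0.32 ± 0.13) lower. Microglial markers, 11 of 14 tested, summed to 3668 to 3736 under Cpd-60, 3460 to 3504 under CI-994 and 3430 to 3673 under vehicle, with no call. Striatal markers had 1 call, Gng7 (0.30 ± 0.10), and the dopamine receptor Drd2 differed by 0.05 ± 0.08. Blood markers, 5 of 9 tested, summed to 14260 to 18762 and 14116 to 15896, with the haemoglobin gene Hba-a1 called at 0.47 ± 0.20. Choroid plexus markers, 6 of 12 tested, summed to 1086 to 1847 and 1130 to 1324, and Ttr measured 8.15, 7.54 and 9.53 under Cpd-60, so that pool 3 was the highest in Ttr. The calls of Aldh1l1, Slc2a1, Itm2a, Gng7 and Hba-a1 each depended on single arrays. They were lost without Cpd-60 pool 2 or CI-994 pool 1 for Aldh1l1 and Itm2a, without Cpd-60 pool 1 or 3 or CI-994 pool 2 or 3 for Slc2a1, without Cpd-60 pool 1 or CI-994 pool 2 or 3 for Gng7, and without Cpd-60 pool 1 or 3, CI-994 pool 1 or 3 or SAHA pool 2 for Hba-a1. With the BeadChip as a block, Slc2a1, Gng7 and Hba-a1 were not called. The part of cell composition and dissection in the differences of single genes was not tested.

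The same pools' NAc and HIP were measured on other arrays, and since they come from the same mice they are not new animals. The 12 higher genes had a positive difference in both regions, beside 48.4% of all genes in the NAc and 46.6% in the HIP. Of the 145 genes they were drawn from, 129 were positive in NAc and 132 in HIP. The pools were apart in the same direction for 6 of the 12 in the NAc (3.7% of all genes) and for 9 of them in hippocampus (4.65%). Cdkn1a differed by 1.09 (NAc) and 1.22 (HIP), and Sgk1 by 0.80 and 1.01, against 0.74 and 0.64 in the PFC, with no difference between regions past the test below. Of the 12 lower genes 10 were negative in NAc (51.6% of all genes) and all 12 in HIP (53.4%). Of the 136 genes they were drawn from, 112 were negative in NAc and 132 in HIP. The pools were apart for 3 of the 12 in NAc (4.96% of all genes) and for 7 in HIP (6.65%). Qdpr was at 0.15 in the NAc and Centg3 at 0.04, against -0.46 and -0.41 in the PFC. Over the 25 glucocorticoid genes the NAc median was 0.29 and the HIP median 0.39, against 0.28 in the PFC, and all 14 called genes were positive in each region, with Bcl6 at 0.003 in the NAc and 0.04 in the HIP.

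**Figure D5:**
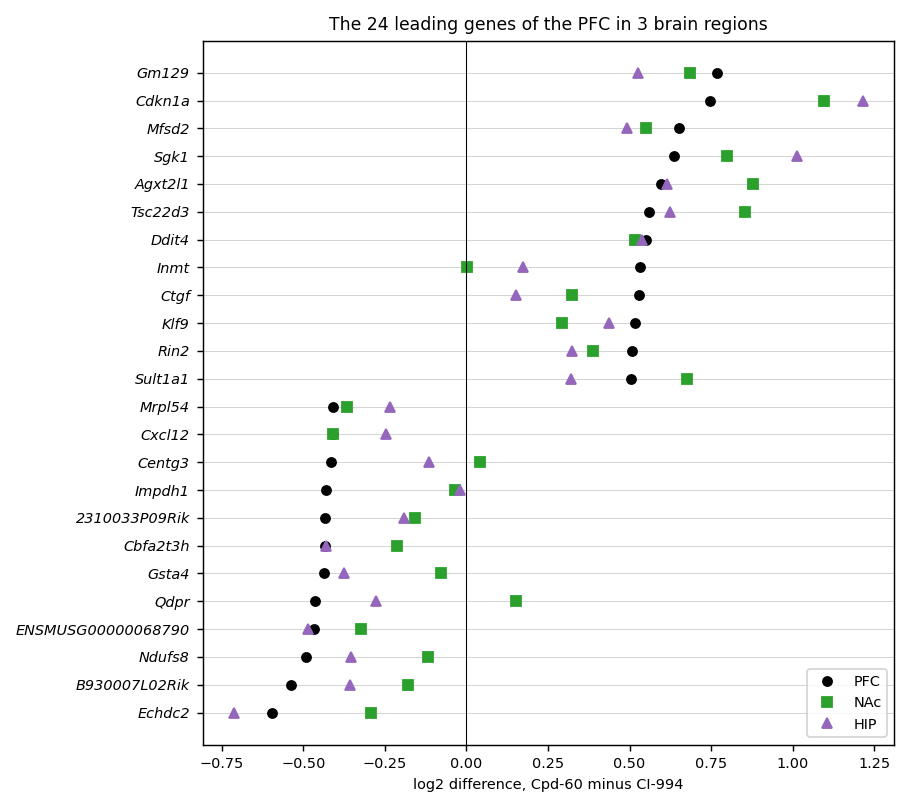
Log2 difference between Cpd-60 and CI-994 for the 12 leading higher and 12 leading lower genes of the PFC, in the PFC (circles), NAc (squares) and HIP (triangles). The genes were chosen on the PFC values. The NAc squares of Qdpr and Centg3 lie on the other side of 0, and that of Inmt lies at 0.001.

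A test of the PFC difference minus its mean in the other regions, on 17598 probes with the pool as a random block, gave 485 (2.76%) at an unadjusted p under 0.05 and 0 at an adjusted p under 0.05. Inmt was the higher gene that met the unadjusted p, with a difference of 0.53 in the PFC against 0.001 (NAc) and 0.17 (HIP) (region difference 0.44 ± 0.16, limma adjusted p = 0.9996). Among the lower genes Qdpr (-0.40 ± 0.19, limma adjusted p = 0.9996) and Centg3 (-0.38 ± 0.18, limma adjusted p = 0.9996) met it as well, and neither passed the adjustment.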

How the data were processed

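The deposited table gives, for each of 36 arrays and 45281 probes, a raw linear intensity, not background-subtracted or normalized by the authors, and a detection p-value. The scanning software is not given in the sources used here. The 36 arrays were quantile normalized together, floored at 1 and log2 transformed. The 12 PFC arrays were fitted in 4 groups with limma 3.58.1 in R 4.3.3, with no covariates, over probes whose detection p-value was 0.2 or less in the 3 Cpd-60 or the 3 CI-994 arrays, and adjusted by Benjamini-Hochberg. A gene is given by its probe with the highest mean signal, under the table's symbol, and 11924 of 14382 symbols matched a current symbol or synonym. Because none passed the adjustment, genes were named as the 12 largest differences each way past an unadjusted p of 0.05 and 1.2-fold, detected at p of at most 0.05 on all 6 arrays, with pools apart, plus genes the study names and up to 4 genes of a list. Members beyond these were named after their values were seen. The groups, lists and tests were chosen with earlier results of these data known. The methods describe 27 of the arrays and not those of CI-994. The fits were tested on simulated data. Alternatives were neqc (offset 16), PFC arrays normalized alone, other detection limits, BeadChip and replicate blocks, array weights, only 6 arrays, the methods' test and leaving out each array. Results of some genes that meet the naming rule are not reported here.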

Additional observations from a re-analysis of the deposited data

How the results depend on the processing

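The directions of the 24 leading genes held under every alternative run. These genes were chosen with the pools apart, so leaving out arrays, array weights and the methods' test could not reverse a sign. The counts, given next, did change. With neqc 759 probes were called higher and 844 lower, and 1 glucocorticoid gene was called lower. Without a detection filter 2802 probes reached an unadjusted p under 0.05. By the methods' test (analysis of variance, Tukey) 490 probes did, 74 were called higher and 94 lower, and 6 glucocorticoid genes were called higher. With array weights, where Cpd-60 pool 3 had a weight of 0.29, 2403 probes reached an unadjusted p under 0.05, 395 were called higher, 373 lower, and 34 passed the adjusted p. These weights were estimated from the same arrays. In the test between regions, a detection p of at most 0.01 gave 280 probes. Leaving out each array in turn gave 1200 to 2233 probes at an unadjusted p under 0.05, 222 to 526 called higher, 227 to 506 called lower and 0 to 21 past the adjusted p, 393 to 582 in the test between regions, and 11 to 16 glucocorticoid genes. The highest counts came without Cpd-60 pool 3, and without Cpd-60 pool 2 there were 372 lower probes. A group left with 2 arrays was assumed to vary like the others.

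The replicate numbers do not pair the pools. Deviations of same-numbered Cpd-60 and CI-994 pools correlated at -0.30, 0.25 and -0.14, and with the replicate block 1545 probes reached an unadjusted p under 0.05, 239 were called higher, 240 lower and 0 passed the adjusted p. The methods' test left Cdkn1a, Sgk1, Agxt2l1, Inmt, Klf9, Qdpr, Impdh1 and Centg3 uncalled. Impdh1 was also uncalled with array weights and with the PFC arrays normalized alone. The cause of these changes was not tested. Genes at background in a group, such as Lcn2, have only a bound there.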

Other observations

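Of the genes called, 54 higher and 50 lower ones did not meet the conditions for the leading genes, and the 8 with the largest differences in each direction were looked at after their values were seen. Ybx3, an RNA- and DNA-binding cold shock protein, measured 9.39, 11.15 and 8.23 in Cpd-60 pools 1, 2 and 3 and 7.91, 8.28 and 8.27 in the CI-994 pools. Cpd-60 pools 1 and 2 were far above and pool 3 lay within the CI-994 range, for a difference of 1.43 ± 0.49 log2 units (limma adjusted p = 0.5181), at 2.36 within BeadChip 1 and -0.05 within BeadChip 2. It was 0.65 without Cpd-60 pool 2 and 2.11 without Cpd-60 pool 3. Txnip, the thioredoxin-interacting protein that limits glucose uptake, measured 8.63, 8.95 and 8.10 against 8.12, 7.80 and 7.72. Cpd-60 pool 3 fell just short of CI-994 pool 1, and the difference was 0.68 ± 0.17 (limma adjusted p = 0.3594), at 0.67 and 0.34 within the BeadChips.

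B230387C07Rik (0.91 ± 0.40) and Ankrd12 (0.66 ± 0.29) were called through BeadChip 1, where they differed by 2.10 and 1.53, and were at -0.06 and -0.09 within BeadChip 2. Without CI-994 pool 1 they were at 0.44 and 0.32, and their calls were lost in 6 and 8 of the fits that left out 1 array. On the lower side Tmem14c, a mitochondrial membrane protein, measured 9.57, 9.91 and 9.33 against 9.90, 10.18 and 10.16, a difference of -0.47 ± 0.15 (limma adjusted p = 0.4713) that was -0.16 within BeadChip 1 and -0.84 within BeadChip 2. Snx8 (-0.38 ± 0.15) ran the other way, at -0.65 within BeadChip 1 and 0.04 within BeadChip 2, and lost its call without Cpd-60 pool 1 (-0.24) or 2 or CI-994 pool 1 or 2.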
